A study of Mus musculus with 8 samples.

Results

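Vegfa, Vegfc, Flt1, Kdr, Tek, Angpt1, Angpt2, Hif1a and Epas1 are 9 genes of the pathways by which brain tissue signals to its blood vessels and senses oxygen. They were found by gene symbol among the 54232 genes that the files list, and all 9 were present. Their levels were measured in nuclei from a 2 mm cube of forebrain next to the lesion, and the mice were male, of the Swiss Webster strain and 10 weeks old. They had control surgery, BCAS surgery, TBI surgery (traumatic brain injury) or both (BCAS+TBI), with 2 libraries in each of the 4 groups. The labels give BCAS only as an abbreviation, and the series' title ties it to cerebral hypoperfusion. They give neither the time from surgery to collection nor whether a library is 1 animal or a pool, so p-values measure the spread between these libraries, which may be technical in part.

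Vascular endothelial growth factors are secreted ligands that act on receptor tyrosine kinases of endothelial cells. Vegfa is the main ligand for Kdr (VEGF receptor 2), the receptor that carries most of its signal, and for Flt1 (VEGF receptor 1), which binds it tightly and signals weakly. Vegfc binds Flt4 and also Kdr, and is best known from lymphatic vessels. Angiopoietins act on Tek (Tie2) of endothelial cells: Angpt1 is the agonist that keeps vessels quiescent, and Angpt2 is a context-dependent antagonist released when vessels are remodelled. Hif1a and Epas1 (HIF-2 alpha) are the oxygen-regulated subunits of hypoxia-inducible factors. They are controlled largely by protein stability, which RNA counts do not measure, and Vegfa is a textbook target of both.

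RefSeq promoter windows of GRCm38.p6 were available for 6 of the 9 genes (Vegfa, Vegfc, Flt1, Kdr, Tek and Hif1a), and 4 are shown because the results turn on a ligand of astrocyte-like nuclei and on 3 receptors of endothelial-like nuclei. Each is the 250 bases before the start site, 5′ to 3′ on the gene's strand. The capitals mark ACGTG or GCGTG, the core that hypoxia-inducible factors bind, and CAGGAA or CCGGAA, a core bound by ETS factors, each searched on both strands. The windows are Vegfa chr17:46032378-46032627 (minus strand), Flt1 chr5:147726012-147726261 (minus), Kdr chr5:75978456-75978705 (minus) and Tek chr4:94739039-94739288 (plus).
Vegfa: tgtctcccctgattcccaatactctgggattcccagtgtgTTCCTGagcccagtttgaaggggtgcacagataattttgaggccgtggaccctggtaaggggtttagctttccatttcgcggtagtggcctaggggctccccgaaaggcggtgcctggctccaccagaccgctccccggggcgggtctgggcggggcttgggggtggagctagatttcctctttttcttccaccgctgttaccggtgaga
Flt1: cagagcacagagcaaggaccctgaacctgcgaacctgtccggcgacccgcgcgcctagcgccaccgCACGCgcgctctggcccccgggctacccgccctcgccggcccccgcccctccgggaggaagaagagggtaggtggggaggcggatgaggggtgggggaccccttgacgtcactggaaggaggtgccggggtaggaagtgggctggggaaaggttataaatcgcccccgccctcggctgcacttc
Kdr: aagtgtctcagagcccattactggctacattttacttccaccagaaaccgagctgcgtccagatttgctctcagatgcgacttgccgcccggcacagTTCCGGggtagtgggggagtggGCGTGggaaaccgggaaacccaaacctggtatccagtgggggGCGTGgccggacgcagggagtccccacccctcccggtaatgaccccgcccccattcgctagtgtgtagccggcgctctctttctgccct
Tek: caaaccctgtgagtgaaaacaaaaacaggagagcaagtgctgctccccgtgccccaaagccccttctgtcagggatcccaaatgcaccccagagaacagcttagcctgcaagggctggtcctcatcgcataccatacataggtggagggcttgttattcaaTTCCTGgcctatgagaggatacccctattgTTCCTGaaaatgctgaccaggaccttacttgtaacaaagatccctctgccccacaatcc

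Over the full windows, which run 50 bases past the start site, the Vegfa window shown held 0 hypoxia cores and 1 ETS core. Flt1 held 1 and 0, Kdr held 2 and 1, and Tek held 0 and 2. The windows not shown do not hold the start of the annotated gene body. Of these, a second one of Vegfa (chr17:46025114-46025413) held 2 hypoxia cores and 0 ETS cores. Vegfc held 0 and 1, and Hif1a held 3 and 0. Of 32544 promoter windows of the same length, 44.0% held at least 1 hypoxia core and 41.3% at least 1 ETS core, so a match is common. A match is only a stretch of letters, and no match in this window says nothing of a factor's sites elsewhere. In GENCODE's annotation of GRCm38, the gene bodies ran from 46016993 to 46032369 on chromosome 17 for Vegfa, from 147561604 to 147726011 on chromosome 5 for Flt1, from 75932827 to 75978458 on chromosome 5 for Kdr and from 94739289 to 94874976 on chromosome 4 for Tek. None of these 4 overlapped another annotated gene. Vegfc ran from 54077606 to 54187096 on chromosome 8, Angpt1 from 42424723 to 42676977 on chromosome 15, Hif1a from 73901375 to 73947530 on chromosome 12 and Epas1 from 86753700 to 86833410 on chromosome 17.

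The files held 28118725 to 56135192 unique molecular identifiers (UMIs) per library, and 45560 nuclei were kept of 53390 barcodes. Pairs of libraries shared 5 to 20 barcodes. Clusters were named from marker genes as 12 classes, and 16 of 48 clusters stayed unnamed. Names rest on markers alone and are written as "astrocyte-like" and so on. The endothelial-like class was named from its 11 markers, so their level there is a description and no check of the name. All 11 were detected there. They summed to 14706 ± 1862 CPM (a gene's UMIs relative to all UMIs of that class in the library, mean and SD, n = 8 libraries), beside 261 ± 159 CPM for the mural markers. The libraries fell into 2 sets by depth. Set 1 (control 1, BCAS 1, TBI 1 and BCAS+TBI 2) had 28118725 to 33363564 UMIs, and set 2 (control 2, BCAS 2, TBI 2 and BCAS+TBI 1) had 42651388 to 56135192. Mitochondrial UMIs (1.2% to 2.77% in set 1, 0.511% to 1.04% in set 2) and UMIs of ribosomal protein genes (0.463% to 0.815% against 0.175% to 0.228%) separated the same sets. Each group has 1 library in each set.

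Levels below are CPM of the summed counts, and they are compared between classes for 1 gene at a time, since CPM is not scaled by gene length. Classes were defined from these nuclei, so their order is a description without a test. The 9 genes and the other pathway genes were kept out of the genes used for clustering.

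**Figure D1:**
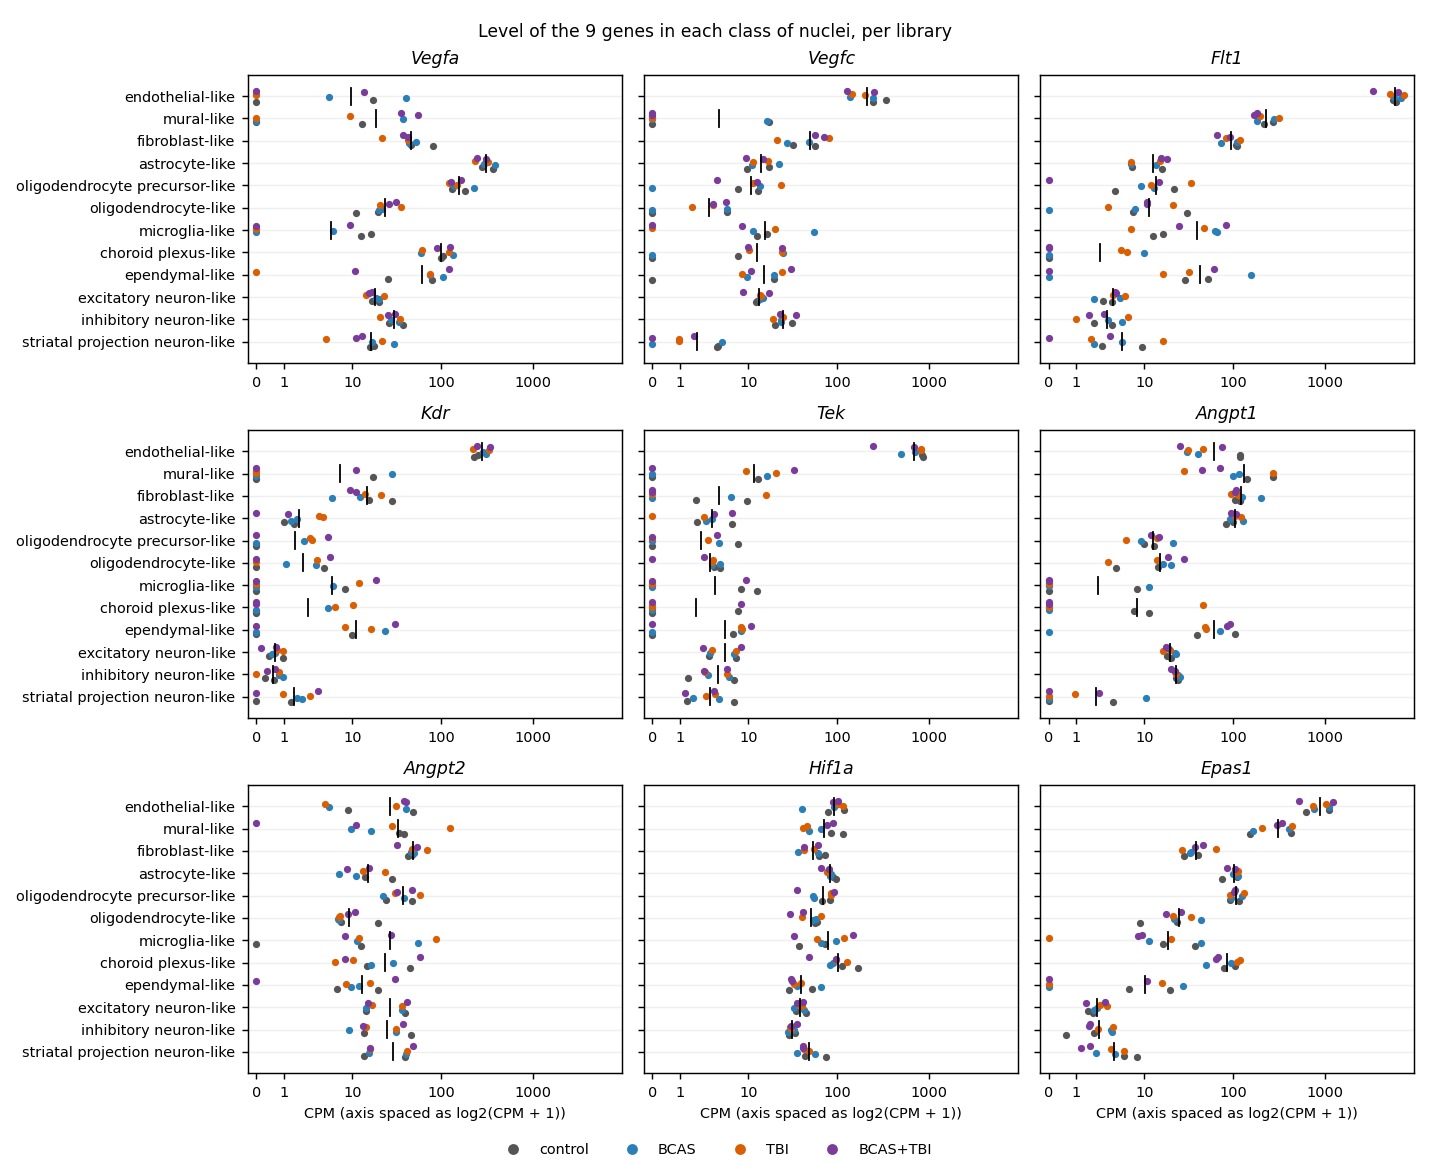
Each panel is 1 gene; the horizontal axis is CPM spaced as log2(CPM + 1), each row is a class of nuclei, each point is a library coloured by group, and the bar is the mean of 8 libraries. Flt1, Kdr and Tek were highest in endothelial-like nuclei (means 5737, 278 and 687 CPM), Vegfa in astrocyte-like nuclei (308 CPM), and Angpt2 and Hif1a had UMIs in all classes.

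Vegfa was highest in astrocyte-like nuclei. In control 1 and 2 the level was 373 and 281 CPM, in BCAS 1 and 2 it was 386 and 297, in TBI 1 and 2 it was 329 and 237, and in BCAS+TBI 1 and 2 it was 314 and 248. The mean was 308 ± 53.9 CPM, 1.97 times that of oligodendrocyte precursor-like nuclei at 156 ± 35.6 CPM, and the ranges of these classes did not overlap (237 to 386 against 122 to 228 CPM). Choroid plexus-like nuclei followed at 100.2 ± 28.4 CPM, higher than ependymal-like nuclei (62.1 ± 44.9 CPM) in 7 of 8 libraries with overlapping ranges. Neuron-like classes had 16.5 to 30.1 CPM, and microglia-like nuclei had 5.5 ± 6.6 CPM from 5 UMIs in all, with 4 libraries at 0. Endothelial-like nuclei, which carry the receptors, had 9.7 CPM.

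The share of nuclei with a UMI was also compared at 1 depth. Each nucleus was reduced to 500 UMIs, and the expected share of nuclei with at least 1 Vegfa UMI was 12.9% ± 1.9 in astrocyte-like nuclei, 7.8% ± 1.7 in oligodendrocyte precursor-like nuclei, 0.97% ± 0.15 in excitatory neuron-like nuclei and 0.46% ± 0.64 in endothelial-like nuclei. Astrocyte-like and oligodendrocyte precursor-like nuclei led here as they did by CPM. Unreduced, the shares were 37.4% ± 4.8 in astrocyte-like nuclei (median 1872.5 UMIs) and 11.5% ± 2.4 in excitatory neuron-like nuclei (median 6381.5 UMIs). Of all 9866 Vegfa UMIs, the unnamed clusters held 39.4%, excitatory neuron-like nuclei, which are more numerous and larger in RNA content, held 23.8%, and astrocyte-like nuclei held 20.8%.

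Vegfc was highest in endothelial-like nuclei at 213 ± 74.0 CPM. Its values were 247 and 344 CPM in the control libraries, 247 and 138 with BCAS alone, 200 and 147 with TBI alone and 256 and 129 with both surgeries, and control 2 alone lay above 256 CPM. Fibroblast-like nuclei had 49.8 ± 21.0 CPM, 4.28 times lower with no overlap, and inhibitory neuron-like nuclei had 25.3 ± 5.4 CPM. Since neurons are many, excitatory neuron-like nuclei (13.4 ± 2.5 CPM) still held 43.6% of all Vegfc UMIs, against 5.8% in endothelial-like nuclei. Among inhibitory neuron-like clusters the one led by Sst, the somatostatin gene, had 32.2 CPM.

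Flt1, the high-affinity Vegfa receptor, had its highest level among the named classes in endothelial-like nuclei. There it was 5985 and 5475 CPM in the control libraries and 6799 and 5600 with BCAS alone. With TBI alone it was 7320 and 5066, and with both surgeries 6314 and 3337. BCAS+TBI 2 stood lowest, and the other 7 libraries lay between 5066 and 7320 CPM. The mean of 5737 ± 1215 CPM was 25.2 times that of mural-like nuclei (227 ± 55.3 CPM), which was in turn 2.38 times that of fibroblast-like nuclei (95.5 ± 19.6 CPM), with no overlap at either step. At 500 UMIs, 87.4% ± 3.9 of endothelial-like nuclei had a Flt1 UMI, against 11.4% ± 2.4 of mural-like and 0.22% ± 0.07 of excitatory neuron-like nuclei. Within the fibroblast-like class, the cluster led by Ranbp3l had 137 CPM and the one led by Bnc2 and Slc47a1 had 6.1 CPM from 4 UMIs.

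Kdr, the main signalling receptor, followed the same pattern at 278 ± 48.1 CPM in endothelial-like nuclei (225 to 345 CPM over the 8 libraries). The next class, fibroblast-like nuclei, had 14.8 ± 7.4 CPM, 18.8 times lower, and excitatory neuron-like nuclei had 0.59 ± 0.28 CPM. At 500 UMIs, 12.2% ± 2.5 of endothelial-like nuclei had a Kdr UMI.

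Tek, the angiopoietin receptor, reached 687 ± 216 CPM in endothelial-like nuclei, 58.9 times the 11.7 ± 12 CPM of mural-like nuclei. At 500 UMIs, 27.6% ± 7.4 of endothelial-like and 0.26% ± 0.11 of excitatory neuron-like nuclei had a Tek UMI.

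Most UMIs of the receptors lay outside the named classes. Endothelial-like nuclei held 30.8% of 20272 Flt1 UMIs, 20.4% of Kdr and 25.4% of Tek UMIs, and unnamed clusters held 63.0%, 67.3% and 50.8%. Clusters with endothelial markers, named or not, together held 85.8% of Flt1, 77.9% of Kdr and 61.6% of Tek UMIs. An unnamed cluster of 341 nuclei alone held 10543 Flt1 UMIs at 4086 CPM. It was led by haemoglobin genes and the mural marker Rgs5, and its 10 leading genes included the endothelial markers Cldn5, Ly6c1, Itm2a and Slco1a4. This cluster met the rules of both the endothelial and the mural class (mean log2 folds 5.55 and 3.91). It was therefore not part of the endothelial-like class, and the comparisons of that class below leave these UMIs out. Excitatory neuron-like nuclei held 18.4% of Tek UMIs (593) at a level of 5.1 ± 2.3 CPM.

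Angpt1, the Tek agonist, had no single leading class. Mural-like nuclei had 131 ± 95.6 CPM, fibroblast-like nuclei 122 ± 34.0 CPM and astrocyte-like nuclei 104 ± 14.7 CPM, and these 3 did not differ beyond their spread. The mural level was the most variable, from 28.3 CPM in TBI 2 to 276 CPM in control 2 on 69 UMIs in all. Nuclei with at least 2 smooth muscle markers (42 nuclei) had 339 CPM, with an exact Poisson 95% interval of 210 to 519 CPM that covers counting error only, and nuclei with at least 2 pericyte markers (317) had 35 CPM. The 118 mural-like nuclei that passed neither rule had 305 CPM (210 to 429), so the high level was not limited to the smooth muscle rule. Astrocyte-like nuclei were steady, with 84.1 and 99.3 CPM in control, 127 and 92.2 with BCAS alone, 121 and 104 with TBI alone and 109 and 95 with both surgeries. Among neurons, the excitatory cluster led by Nr4a2 and Ntng2 had 108 CPM, whereas excitatory neuron-like nuclei as a whole had 19.6 ± 2.3 CPM.

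Angpt2, the context-dependent Tek antagonist, was low, with UMIs in all classes. Fibroblast-like nuclei had 49.3 ± 10.6 CPM, oligodendrocyte precursor-like nuclei 38.1 ± 12.7 CPM, and endothelial-like nuclei 27.6 ± 18.4 CPM from 23 UMIs, a level close to that of excitatory neuron-like nuclei (27.1 ± 12.9 CPM). Adjacent classes at the top of this order overlapped in range over the 8 libraries, whose 2 sets differ in Angpt2 as given below. Within set 2, fibroblast-like nuclei (46.5 to 54.7 CPM) lay above oligodendrocyte precursor-like nuclei (22.9 to 32.5 CPM), and within set 1 these classes overlapped. Excitatory neuron markers, which other cells should lack, summed to 133 CPM in endothelial-like and 107 CPM in microglia-like nuclei, above these Angpt2 levels. The part of free RNA or doublets in low levels such as these, those of Hif1a and those of Tek in neuron-like nuclei was not tested. Angpt2 lies on the minus strand of chromosome 8 from 18690263 to 18741562, within Mcph1 on the other strand (18595131 to 18803189), and whether the counting used strand is not given in the sources used here, so the counts of the 2 genes are uncertain against each other.

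Hif1a had UMIs in every class, from 31.7 ± 2.7 CPM in inhibitory neuron-like nuclei to 104 ± 35.1 CPM in choroid plexus-like nuclei. Endothelial-like nuclei had 92.7 ± 24.6 CPM and astrocyte-like nuclei 83.1 ± 9.0 CPM, and the 5 highest classes overlapped. The ends of the order were apart, with 28.4 to 36.5 CPM over the libraries in inhibitory neuron-like and 67.0 to 96.9 CPM in astrocyte-like nuclei. Epas1 was highest in the vascular classes. Endothelial-like nuclei had 892 ± 259 CPM, mural-like nuclei 307 ± 118 CPM, and oligodendrocyte precursor-like and astrocyte-like nuclei 108 ± 15.7 and 102 ± 14.4 CPM, with no overlap at the first 2 steps and overlap at the third. Neuron-like classes had 2.3 to 4.1 CPM. At 500 UMIs, 34.4% ± 6.5 of endothelial-like and 16.5% ± 4.8 of mural-like nuclei had an Epas1 UMI, against 0.15% ± 0.04 of excitatory neuron-like nuclei.

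Within the endothelial-like class some of the genes differed in level between its 2 clusters. One of 153 nuclei was led by Eln (elastin), Mgp and Mecom, and the other of 873 nuclei by Slco1a4 and Flt1, the first of which encodes a transporter of the blood-brain barrier. In the Eln cluster Vegfc was 1039 and 917 CPM in control, 1100 and 891 with BCAS alone, 848 and 1083 with TBI alone and 950 and 360 with both surgeries. In the Slco1a4 cluster it was 19.0 to 158 CPM, so all 8 libraries were higher in the Eln cluster. Angpt1 was likewise 79.9 to 497 CPM in the Eln cluster and 0 to 12.6 CPM in the Slco1a4 cluster. Kdr ran the other way, with 0 to 141 CPM against 246 to 395 CPM, as did Hif1a, which had 3 UMIs in the Eln cluster (16 CPM pooled) and 115 CPM in the Slco1a4 cluster. Flt1 was 3131 against 6152 CPM, while Tek (821 against 722 CPM) and Epas1 (1227 against 928 CPM) were similar in both. The Eln cluster had 9 to 40 nuclei per library, so values of single libraries rest on few UMIs.

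Marker gates were also drawn in the same 1026 endothelial-like nuclei, so they count the nuclei of the 2 clusters again and are no independent support. The arterial marker Bmx was among the 10 leading genes of the Eln cluster. The venous marker Vwf was among those of the Slco1a4 cluster. Endothelial-like nuclei with at least 2 arterial markers (76 nuclei) had 870 CPM of Vegfc, 435 CPM of Angpt1 and 62.2 CPM of Kdr. Those with at least 2 capillary markers (177 nuclei) had 15 CPM of Vegfc from 3 UMIs, 0 Angpt1 UMIs, 465 CPM of Kdr and 7267 CPM of Flt1. Nuclei with venous markers (73) were between them in Vegfc at 273 CPM, had 0 Angpt1 UMIs, and had 218 CPM of Hif1a. These gates are ranges of nuclei that passed a marker rule, and 700 of 1026 nuclei passed none.

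Astrocyte-like nuclei also comprised 2 clusters. The cluster led by Aqp4, Apoe and Gfap (2175 nuclei) had 60.1 CPM of Hif1a, and the cluster led by Slc6a11, Itih3 and Agt (1127 nuclei) had 139 CPM, with ranges over libraries of 41.2 to 70.5 and 111 to 175 CPM. Angpt1 was higher in the Aqp4 cluster, at 120 against 67.8 CPM with no overlap between libraries. Vegfa (327 against 269 CPM) and Epas1 (104 against 100 CPM) overlapped.

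**Figure D2:**
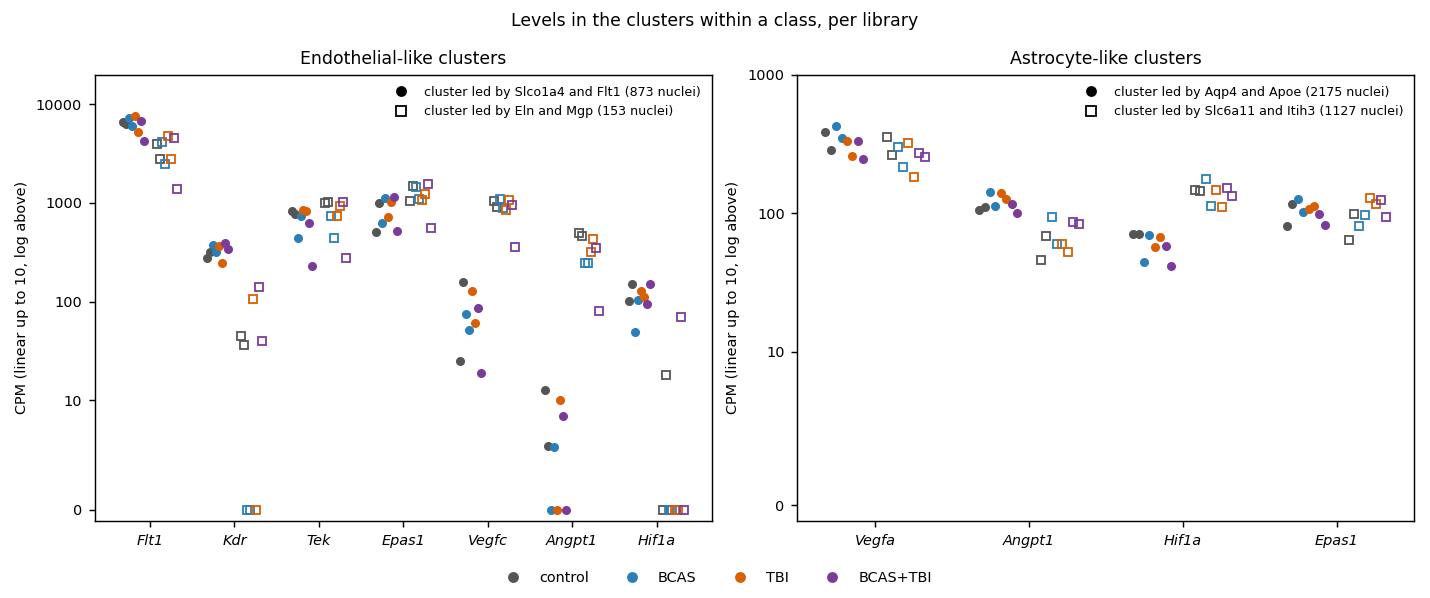
The vertical axis is CPM, linear up to 10 and logarithmic above, for genes in the 2 endothelial-like clusters (left) and the 2 astrocyte-like clusters (right); each point is a library, filled for the larger cluster and open for the smaller. Vegfc and Angpt1 lie higher in the Eln cluster, Kdr and Hif1a in the Slco1a4 cluster, and Hif1a is higher in the Slc6a11 cluster of astrocyte-like nuclei.

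The other genes of the pathways were also divided between classes. In endothelial-like nuclei Ptprb, a phosphatase that acts on Tek, had 2192 ± 310 CPM, the co-receptors Nrp1 and Nrp2 had 358 ± 96.1 and 251 ± 82.0 CPM, Tie1 had 177 ± 52.3 CPM, and Flt4, the receptor of Vegfc, had 65.2 ± 19.1 CPM. Nos3 (endothelial nitric oxide synthase) had 194 ± 49.9 CPM and Pdgfb, the ligand that recruits pericytes, had 239 ± 56.9 CPM there. Vegfd was also highest there at 81.1 ± 24.8 CPM, whereas Vegfb was highest in astrocyte-like nuclei at 39.6 ± 10.2 CPM. Hif3a, a further HIF subunit, was highest in astrocyte-like nuclei at 104 ± 37.2 CPM, and Arnt2, a neural partner of HIF subunits, in inhibitory neuron-like nuclei at 304 ± 35.6 CPM. Pdgfb and Nos3 were on the list of VEGF response and tip-cell genes. Of the same list, Dll4 had 35.3 ± 22.6 CPM in endothelial-like nuclei, and Esm1 stayed at or below 7.6 CPM in every class.

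The genes most alike in pattern were sought over 88 sums (11 classes by 8 libraries), by Pearson's r of log2(CPM + 10). These sums share libraries and classes, so r is a description with no test. Flt1 was most like Adgrf5 (r = 0.96), Emcn (0.95) and Cxcl12 (0.93), and the first 2 are endothelial markers used in naming. Kdr was most like She, Ushbp1 and Adgrl4 (0.94 each), and Tek most like Gata2, Sox17 and Erg (0.96, 0.96 and 0.95). Epas1 was most like Sox13, Il17rd and Cobll1 (0.86, 0.86 and 0.85), and Vegfc most like Abcc6, Fam43a and Hmcn1 (0.86, 0.83 and 0.83). Vegfa was most like Gldc, the glycine decarboxylase of astrocytes (0.84), Ddhd1 (0.83) and Atp13a4 (0.82), and Angpt1 most like Fam20a, AC162302.2 and Zbtb7c (0.82, 0.79 and 0.77). Hif1a (Itpkb 0.69, Maml2 0.66, Npepl1 0.66) and Angpt2 (Arhgap20os 0.53, Pebp4 0.52, Fubp1 0.52) had no close match. Among the 9 genes, r was 0.90 for Flt1 with Kdr and for Kdr with Tek, 0.85 for Flt1 with Tek, and -0.39 for Vegfa with Flt1.

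Several of the genes separated by library set. Over all kept nuclei, Angpt2 was 37.3 ± 2.5 CPM in the 4 libraries of set 1 and 15.1 ± 1.5 CPM in the 4 of set 2, 2.48 times lower without overlap. Of the 6 classes with at least 50 Angpt2 UMIs, 4 did not overlap between the sets: it was 39.0 against 15.2 CPM in excitatory neuron-like, 37.2 against 12.7 in inhibitory neuron-like, 43.4 against 15.5 in striatal projection neuron-like and 48.4 against 27.8 in oligodendrocyte precursor-like nuclei. Astrocyte-like nuclei overlapped (19.8 against 10.7 CPM), and fibroblast-like nuclei, the highest class, had no gap (49.3 against 49.3 CPM). Mcph1, which surrounds Angpt2 on the other strand, went the opposite way (57.0 ± 3.8 against 77.8 ± 2.4 CPM). Gm15283, annotated antisense to Hif1a, went the same way as Angpt2 (56.0 ± 5.7 against 19.6 ± 2.6 CPM), while Hif1a itself had 46.6 ± 1.3 against 40.0 ± 2.1 CPM. Gm49321, annotated as protein-coding, overlaps Hif1a on the same strand. It had 3.3 ± 0.3 against 2.4 ± 0.4 CPM over all kept nuclei. The part of overlapping genes, depth, and mitochondrial or ribosomal share in these values was not tested.

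Tek in excitatory neuron-like nuclei had 7.2 ± 0.6 CPM in set 1 and 3.1 ± 0.4 in set 2, a ratio of 2.34, so the low neuronal Tek signal moved with the set, and in endothelial-like nuclei Tek showed no such separation. Epas1 in endothelial-like nuclei was lower in set 1, at 528 to 762 CPM against 1040 to 1223 CPM. In all, 12 of 56 pairs of a gene and a class with at least 50 UMIs (21.4%) did not overlap between the sets, 9 of them higher in set 1, against 29.2% of 97183 pairs over all genes. The separation was thus not particular to these genes, and each comparison below was also fitted with the set as a term.

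**Figure D3:**
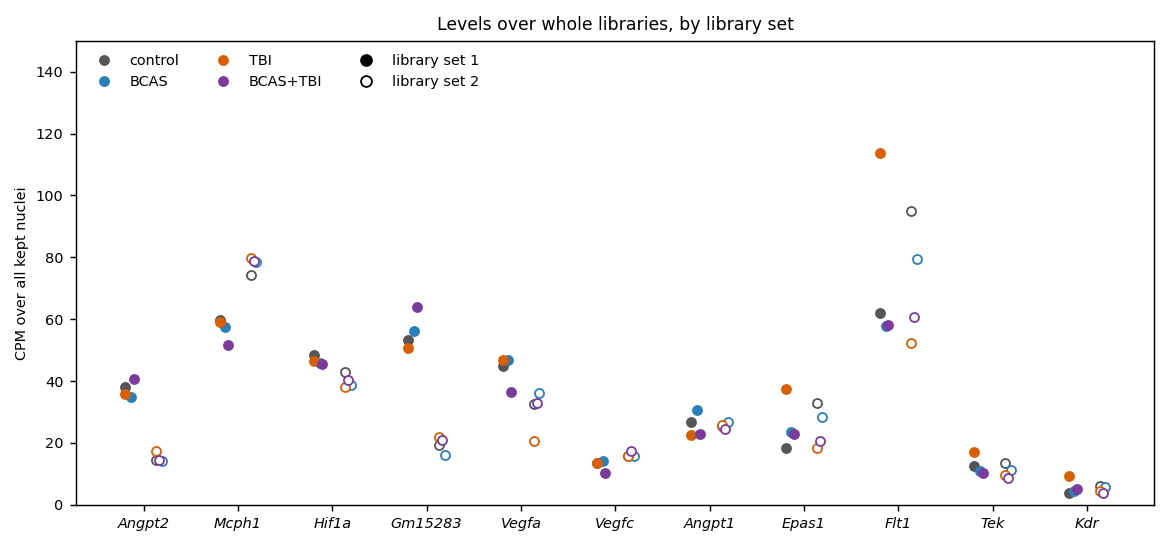
CPM over all kept nuclei for the 9 genes and for Mcph1 and Gm15283, which overlap Angpt2 and Hif1a on the other strand; each point is a library coloured by group, filled for set 1 and open for set 2. Angpt2 lies at 34.8 to 40.5 CPM in set 1 and at 14.2 to 17.3 CPM in set 2 whatever the group.

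The comparisons ask what each surgery does and, as the title puts it, whether hypoperfusion changes the outcome of brain injury. A pair of 1 gene and 1 class was tested where the counts sufficed, which held for 56 of the 99 pairs of the 9 genes with the 11 classes that had at least 20 nuclei in every library. Vegfa could be tested in 8 classes, Vegfc in 5, Flt1 in 7, Kdr in 2, Tek in 3, Angpt1 in 7, Angpt2 in 6, Hif1a in 10 and Epas1 in 8. By edgeR's quasi-likelihood test, adjusted over all 89534 pairs, 0 of the 56 passed an adjusted p of 0.05 for TBI averaged over BCAS, and the share of all pairs called was 0%. The count was likewise 0 with 0% of all pairs called for BCAS averaged over TBI, for the interaction, and for BCAS+TBI set against TBI or against control. At an unadjusted p under 0.05, the 9 genes had 0, 2, 1, 0 and 0 pairs in that order, where all pairs had 0.978%, 0.988%, 1.06%, 0.906% and 0.964%.

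With the library set as a term, again 0 of the 56 pairs passed in any of the 5 contrasts, while 0.00894%, 0.0838%, 0.00223%, 0.0369% and 0.0525% of all pairs did. At an unadjusted p under 0.05 the 9 genes then had 0, 3, 3, 4 and 1 pairs, against 4.48%, 3.84%, 4.81%, 4.17% and 3.69% of all pairs. In the model without the set these shares of all pairs were lower in every contrast, far below the rate that a threshold of 0.05 allows. Counts of 0 in that model are therefore weak evidence of no difference. DESeq2 also called 0 of these pairs in every contrast.

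For TBI averaged over BCAS, the fitted log2 differences of the 56 pairs ran from -0.71 to 0.68 with a median of 0.01, 29 higher and 27 lower. The 95% interval lay within a 2-fold change in either direction for 31 of them, and for 42 with the library set as a term. For BCAS averaged over TBI they ran from -1.04 to 1.27 with a median of -0.03, and the interval lay within 2-fold for 31 pairs and 40 with the set. Vegfa in astrocyte-like nuclei was among them: its difference was -0.24 (95% interval -0.68 to 0.20) for TBI and 0.02 (-0.42 to 0.46) for BCAS, so a doubling or halving lay outside both intervals. For TBI, the same held for Flt1 (-0.10, -0.68 to 0.49), Kdr (0.14, -0.42 to 0.70) and Epas1 (0.00, -0.66 to 0.66) in endothelial-like nuclei and for Hif1a in astrocyte-like nuclei (-0.23, -0.61 to 0.16). The interaction was much less precise, with 6 of 56 intervals within 2-fold.

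**Figure D4:**
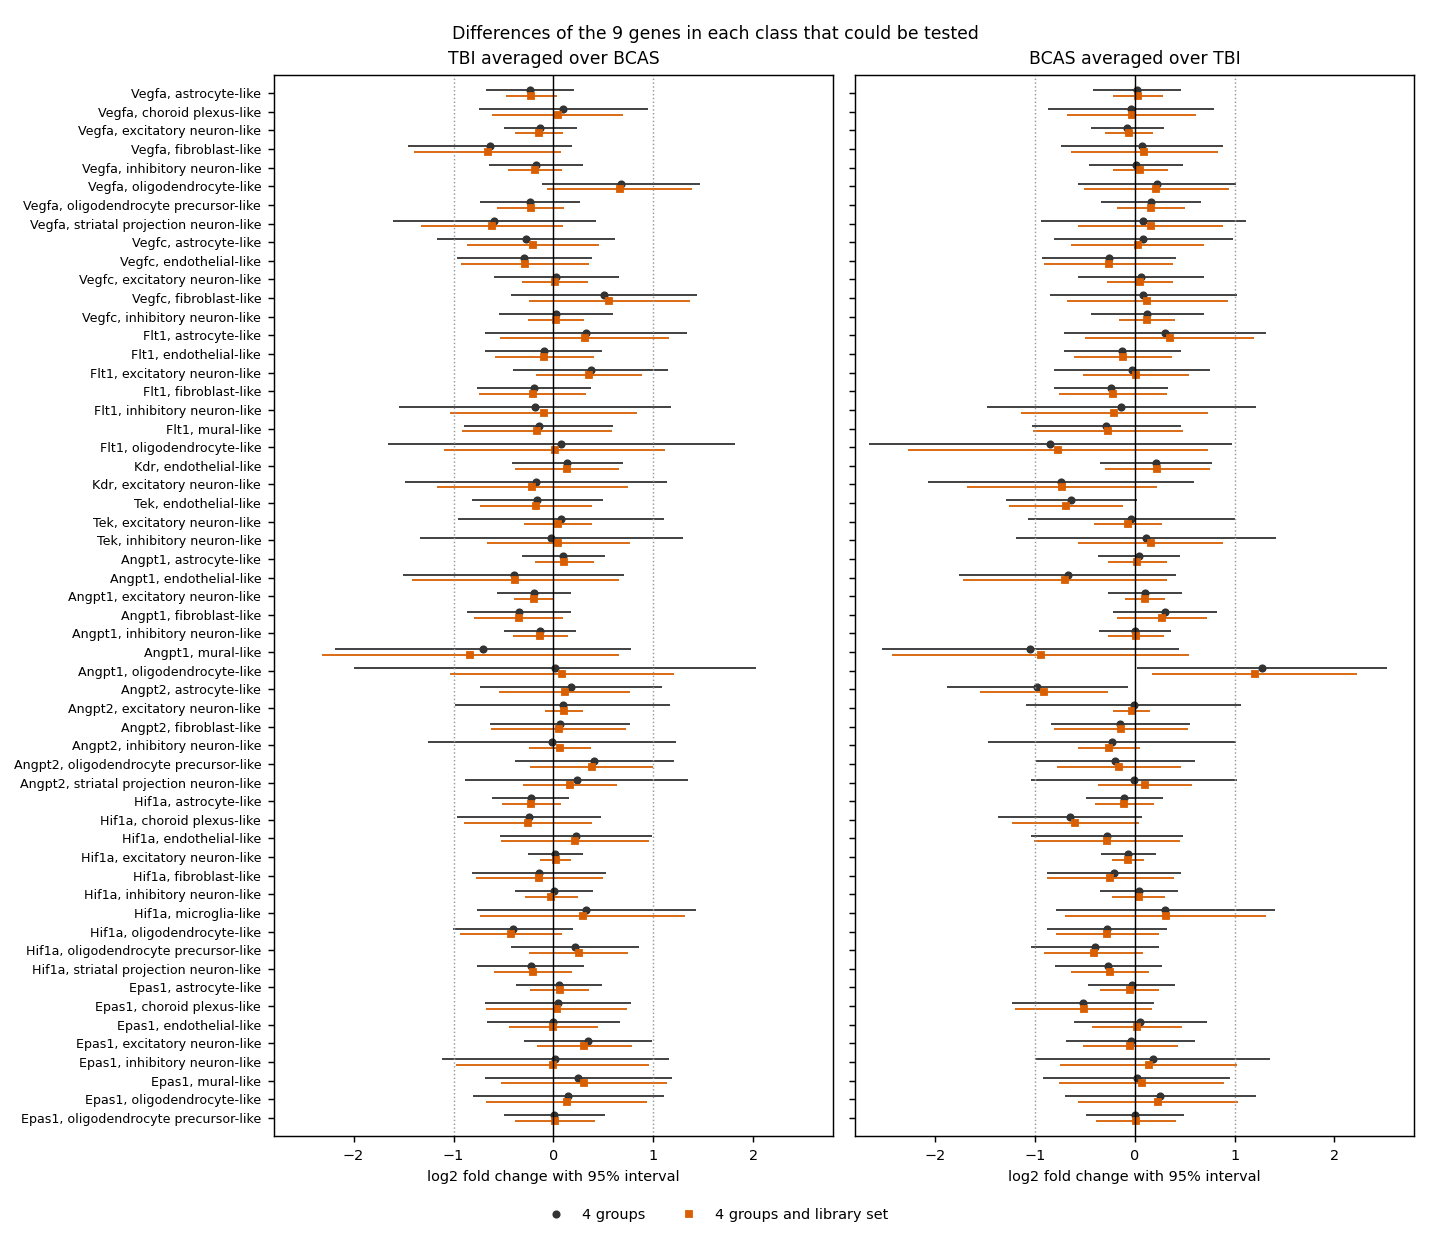
The log2 fold change of each of the 56 tested pairs with its 95% interval, for TBI averaged over BCAS (left) and BCAS averaged over TBI (right), from the model with 4 groups (black) and with the library set added (orange); dotted lines mark 2-fold changes. Adjusted p-values were at least 0.9999 in both models for both contrasts.

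Separation by surgery was read in the pairs of at least 50 UMIs. These genes had 56 such pairs, which are not all the same as the 56 tested. The counts of pairs apart are small, and they were not tested against the share of all pairs. The 4 libraries with TBI did not overlap the 4 without it in 3 of these 56 pairs, where 1.45% of all 97183 such pairs did not overlap. They were Hif1a in astrocyte-like nuclei (67.0 to 81.9 CPM with TBI, 84.4 to 96.9 without), Angpt1 in inhibitory neuron-like nuclei (20.4 to 23.2 against 23.2 to 26.0) and Vegfa in fibroblast-like nuclei (22.4 to 43.7 against 45.0 to 81.8). Astrocyte markers summed to 2001 CPM in fibroblast-like nuclei and to 15385 CPM in astrocyte-like nuclei, the class highest in Vegfa. The part of astrocyte RNA in the fibroblast-like Vegfa values was not tested. The 4 libraries with BCAS did not overlap the others in 2 of 56 pairs, where 1.36% of all pairs did not, namely Tek in endothelial-like and Angpt1 in oligodendrocyte-like nuclei. None of these 5 passed the test, and the smallest unadjusted p for TBI among the pairs of these genes, in the model without the library set, was 0.0853, for Vegfa in oligodendrocyte-like nuclei (log2 difference 0.68, -0.11 to 1.46).

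Tek in endothelial-like nuclei had 859 and 837 CPM in control, 494 and 703 with BCAS alone, 831 and 833 with TBI alone and 698 and 245 with both surgeries. All 4 libraries with BCAS were thus lower than all 4 without it. The fitted log2 difference was -0.63 (95% interval -1.29 to 0.02, unadjusted p = 0.0573 by edgeR's quasi-likelihood test, adjusted p = 0.99999), and -0.69 (-1.25 to -0.12, unadjusted p = 0.0216, adjusted p = 0.99996) with the library set as a term. Without BCAS+TBI replicate 2, which had the lowest value, the difference was -0.37, and without BCAS+TBI replicate 1 it was -1.06. In BCAS+TBI 2 the endothelial-like class had 60 nuclei, its 11 endothelial markers summed to 11581 CPM, the lowest of the 8 libraries, and its haemoglobin UMIs were the highest at 1610 CPM. Over the 4 libraries with BCAS those markers ranged from 11581 to 16029 CPM and over the 4 without from 12782 to 17122 CPM, and their part in the Tek values was not tested. In the Slco1a4 cluster alone Tek was 228 to 732 CPM with BCAS and 776 to 841 CPM without.

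Angpt2 in astrocyte-like nuclei had the smallest p of the 9 genes for BCAS averaged over TBI in both models. Its values were 28.6 and 14.2 CPM in control, 11.1 and 7.0 with BCAS alone, 24.1 and 13.3 with TBI alone and 8.6 and 15.6 with both surgeries. The log2 difference was -0.97 (95% interval -1.88 to -0.06, unadjusted p = 0.0383, adjusted p = 0.99999 by edgeR's quasi-likelihood test), and -0.91 (-1.55 to -0.26, unadjusted p = 0.00802) with the library set. The groups with and without BCAS overlapped, and the gene had 100 UMIs in these nuclei. Angpt1 in oligodendrocyte-like nuclei, on 60 UMIs, had 16.6 to 28.7 CPM with BCAS and 3.4 to 14.5 CPM without, a log2 difference of 1.27 (0.02 to 2.53, unadjusted p = 0.0471 by edgeR). The same pair had the smallest p for BCAS+TBI against TBI in both models, with, in the model without the set, a log2 difference of 1.68 (-0.15 to 3.51, unadjusted p = 0.0675).

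For the interaction, the smallest p in the model without the library set was that of Angpt1 in endothelial-like nuclei. The values were 119 and 119 CPM in control, 41.2 and 30.8 with BCAS alone, 31.6 and 46.0 with TBI alone and 76.0 and 25.8 with both surgeries, and the fitted interaction was 2.24 on the log2 scale (95% interval 0.07 to 4.40, unadjusted p = 0.0442, adjusted p = 0.99999 by edgeR's quasi-likelihood test). Angpt1 lay almost wholly in the Eln cluster, with 67 of 73 UMIs, and that cluster had 23 of 127 and 40 of 184 endothelial-like nuclei in control, 9 of 56 and 15 of 157 with BCAS alone, 11 of 99 and 19 of 206 with TBI alone and 24 of 137 and 12 of 60 with both surgeries. The part of these numbers in the interaction was not tested. With the set as a term, Epas1 in inhibitory neuron-like nuclei led instead, with an interaction of -2.23 (-3.94 to -0.51, unadjusted p = 0.0133, adjusted p = 0.982 by edgeR), beside 2.30 (0.28 to 4.32, unadjusted p = 0.0290 by edgeR) for Angpt1. That Epas1 pair rested on only 68 UMIs, at 0.55 to 3.85 CPM in set 1 and 1.73 to 4.04 CPM in set 2. For BCAS+TBI against control, Hif1a in choroid plexus-like nuclei had the smallest p without the set, with 169 and 113 CPM in control, 98.2 and 48.9 CPM in BCAS+TBI and a log2 difference of -0.90 (-1.94 to 0.15, unadjusted p = 0.0848 by edgeR). With the set, Tek in endothelial-like nuclei had the smallest, at -0.86 (-1.66 to -0.06, unadjusted p = 0.0371, adjusted p = 0.99995 by edgeR).

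**Figure D5:**
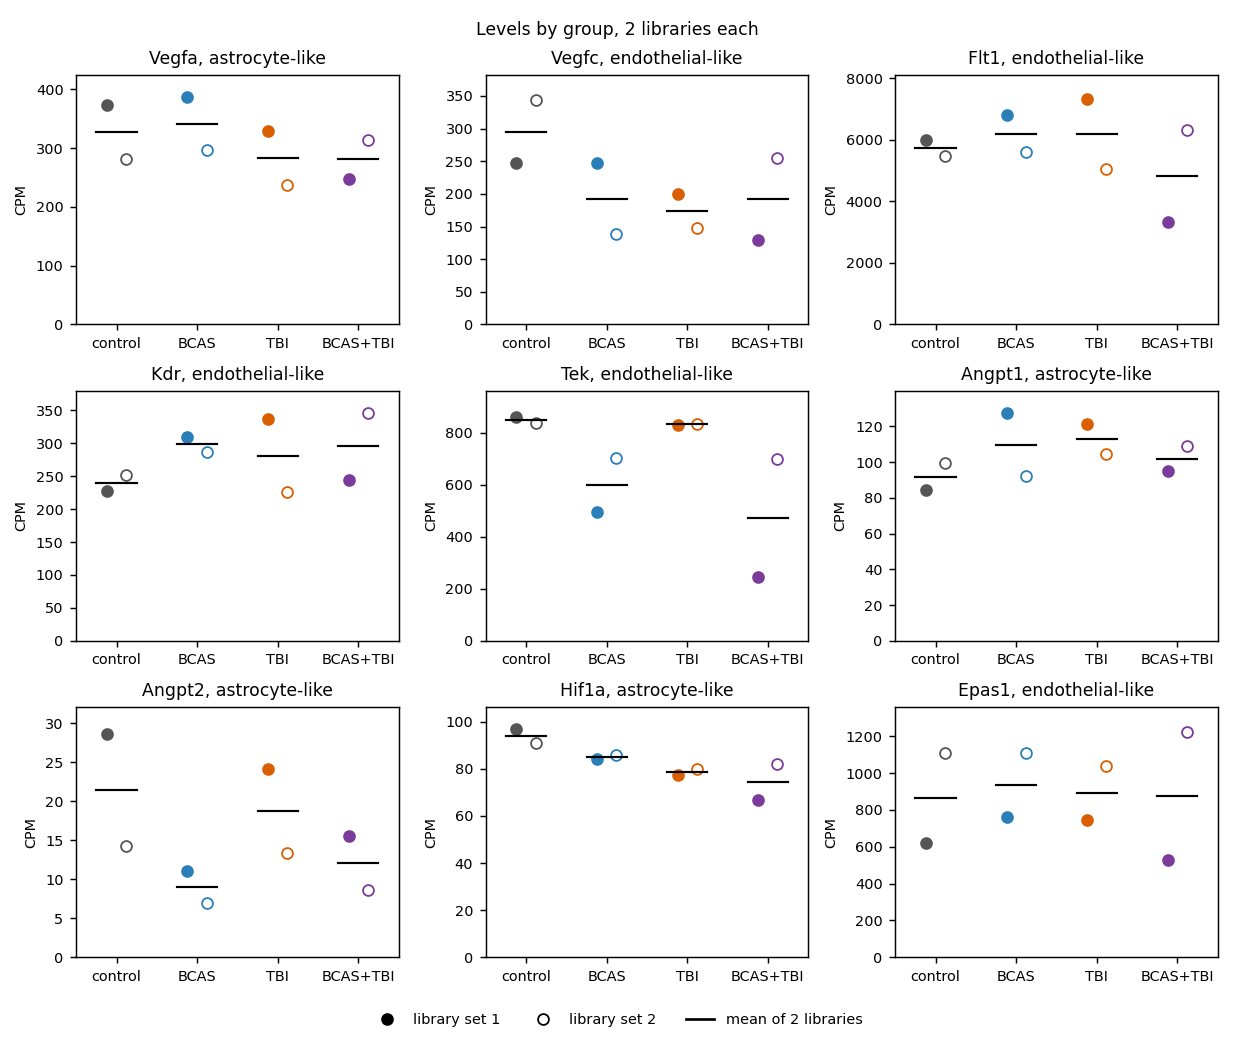
CPM of each gene in 1 class by group, with 2 libraries per group; points are libraries, filled for set 1 and open for set 2, and bars are the mean of 2. Tek in endothelial-like nuclei is at 245 to 703 CPM in the 4 libraries with BCAS and at 831 to 859 CPM in the others, and most other genes overlap between groups.

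Of the 96 tested pairs of the other pathway genes, 0 passed in any of the 5 contrasts in either model. Those with the smallest p-values were mostly neuropilins, which are co-receptors of VEGF ligands. Nrp1 in microglia-like nuclei had 89.4 and 123 CPM in control, 224 and 263 with BCAS alone, 230 and 190 with TBI alone and 182 and 159 with both surgeries. Both libraries of each surgery alone thus lay above both control libraries, and the interaction was -1.48 (95% interval -2.56 to -0.40, unadjusted p = 0.0114, adjusted p = 0.99999 by edgeR's quasi-likelihood test). In mural-like nuclei the interaction of Nrp1 was -2.41 (-4.73 to -0.08, unadjusted p = 0.0436) and its difference between BCAS+TBI and TBI was -1.91 (-3.55 to -0.27, unadjusted p = 0.0266). Nrp2 in microglia-like nuclei had 33.8 to 84.2 CPM in the 4 libraries with TBI and 89.4 to 157 CPM in the 4 without, with a log2 difference of -0.99 (-1.82 to -0.16, unadjusted p = 0.0227, adjusted p = 0.99997). Its log2 difference between BCAS+TBI and TBI was 1.26 (-0.02 to 2.53, unadjusted p = 0.0528) and 0.76 for BCAS averaged over TBI (-0.06 to 1.59, unadjusted p = 0.0676), a contrast in which Nrp1 in microglia-like nuclei had 0.44 (-0.11 to 0.98, unadjusted p = 0.105). For BCAS+TBI against control the pairs were Nrp1 in microglia-like nuclei (0.67, -0.15 to 1.49) and Egln1, an oxygen-sensing prolyl hydroxylase, in oligodendrocyte precursor-like nuclei (-1.02, -2.34 to 0.31). Hif1an in inhibitory neuron-like nuclei was the other pair named for TBI, with a log2 difference of 0.30 (-0.07 to 0.67).

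Summed over whole libraries, where a change in the number of nuclei of a type and a change in RNA per nucleus cannot be told apart, 0 of the 9 genes passed the edgeR test in any contrast, as did 0 of all 23975 genes. The log2 differences of the 9 genes ran from -0.24 (Vegfa) to 0.09 (Angpt2) for TBI averaged over BCAS and from -0.35 (Tek) to 0.10 for BCAS averaged over TBI. Endothelial-like nuclei made up 2.83% ± 0.66 of kept nuclei in control libraries (SD over 2 libraries, as for the other groups) and 1.76% ± 0.96 with BCAS alone. The shares were 2.42% ± 0.65 with TBI alone and 1.79% ± 0.89 with both surgeries. They leave out the unnamed clusters with endothelial markers, which were uneven over libraries, so the order of the groups may differ with them. The cluster of 341 nuclei had 27 and 77 in control, 29 and 50 with BCAS alone, 55 and 50 with TBI alone and 27 and 26 with both. Another, of 208 nuclei, had 96 in TBI 1.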

How the data were processed

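Single-nucleus libraries (10x Genomics 3′ chemistry) were measured in 8 samples, and the grouping follows the sample titles. The authors' deposited files hold raw counts, whole UMIs per gene and barcode with no normalization. Per the file headers Cell Ranger 7.0.0 made them, and the submitters' processing notes name GRCm38, mm10 and Seurat. The annotation release and the use of strand are not given in the sources used here. Totals per library bound the precision, and counts of UMIs carry counting error beside the spread of libraries.

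A barcode was kept with 500 or more UMIs, 300 or more genes and a mitochondrial share of up to 5%. Scrublet's automatic threshold did not work in 7 of 8 libraries, so the 6% of barcodes with the highest doublet score per library were removed (2908). Leiden clusters (scanpy 1.11.5, igraph 0.11.9; 3000 variable genes, 30 components, 15 neighbours, resolution 1) were named where at least 3 markers of a class were 2-fold higher and detected in 10% of nuclei, with a mean log2 fold of at least 1.5 (pseudocount 10 CPM). Neurons were named by a 5-fold ratio of excitatory to inhibitory markers. No name was given to a cluster that met no class's rule or those of 2 classes, had a haemoglobin gene in its top 10 or had a median doublet score above 0.1 (11696 nuclei in all, 25.7%; the 2 largest such clusters, of 3968 and 2631 nuclei, met no rule).

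Counts were summed per library and class and tested with edgeR 4.0.16 in R 4.3.3 (quasi-likelihood, two-sided, 4 groups, TMM, filterByExpr at min.count 10, Benjamini-Hochberg over all pairs of a contrast). DESeq2 1.42.0, RLE normalization, other filters and classes, blocks for replicate number or library set, and leaving out each library were alternatives. The scripts were tested on simulated data. Shares at 500 UMIs are the exact expectation over random draws. The named pairs are the member pair with the smallest p per contrast and, of the other pathway genes, the 2 smallest. The pairs of a gene and a class whose libraries did not overlap, and the cluster and library set values, were chosen after values were seen. The 9 genes, markers and lists were chosen with earlier results of these data known.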

Additional observations from a re-analysis of the deposited data

Results flagged for a closer look

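A cluster of 208 nuclei led by the haemoglobin genes Hbb-bt, Hba-a1 and Hbb-bs also carried endothelial markers and was left out of the comparisons. It had 96 nuclei in TBI 1 against 16 and 14 in the control libraries and 8 to 28 in the other 5. It had 670 CPM of Flt1, 93.0 of Tek, 49.5 of Kdr and 195 of Epas1, all below the endothelial-like class. In TBI 1 alone Flt1 was 599 CPM in it. With this cluster counted as endothelial-like, the class had 3664 CPM of Flt1, 462 of Tek, 183 of Kdr and 137 of Vegfc, and again 0 pairs of the 9 genes passed the edgeR test in any contrast. The larger haemoglobin-led cluster of 341 nuclei, which had both endothelial and mural markers, was not added in this fit.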

How the results depend on the processing

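Across 33 other settings, 0 of 8731 values for pairs of these genes passed an adjusted p of 0.05; 948 changed sign and 289 moved by over 1 standard error. The smallest adjusted p was 0.0772, for Tek in endothelial-like nuclei under BCAS without BCAS+TBI replicate 1 and with the library set as a block. Counts over all genes, 0 in each contrast, did move. In the order TBI, BCAS, interaction, BCAS+TBI against TBI and BCAS+TBI against control, they were 36, 96, 16, 33 and 69 with no filter on low counts. DESeq2 called 1 for TBI and 1 for the interaction. With the library set as a block they were 8, 75, 2, 33 and 47, with DESeq2 5, 5, 10, 1 and 8, with the haemoglobin cluster added 8, 74, 2, 33 and 47, and without high-UMI nuclei 9 for TBI and 6 for BCAS+TBI against control. Leaving out each library gave 0 throughout. With the block it gave 17 to 125, 38 to 167, 10 to 101, 41 to 156 and 24 to 175, the highest each time without BCAS+TBI replicate 1.

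With the replicate number as a block, 0 pairs were called in each contrast. The deviations of same-numbered libraries from their group means correlated at 0.67 to 0.83 among control, BCAS and TBI and at -0.87 to -0.76 with BCAS+TBI, so the numbers do not pair the samples across all groups, and the library set, chosen after seeing the data, is the crossed pairing. The haemoglobin and left-out fits with that block were also added after seeing the data. Of 48 levels under other definitions of the classes, 4 moved by over 1 SD, all with the haemoglobin cluster added. All 9 shares of nuclei with a UMI, each gene in its highest class, were higher by over 1 SD without the reduction to 500 UMIs (from 12.9% to 37.4% for Vegfa). At a minimum of 1000 UMIs per nucleus the endothelial-like and mural-like classes had too few nuclei to be tested. The depth limits Kdr, Tek and Angpt2 outside their main classes, where many libraries had under 10 UMIs.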

Other observations

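The ligands also varied among the 20 clusters of neuron-like nuclei, given here as pooled CPM with the range over libraries. Angpt1 was 108 CPM (57.4 to 178) in the cluster led by Nr4a2, Ntng2 and Oprk1, 48.5 CPM (40.3 to 65.3) in one led by 6530403H02Rik and Dpyd, and 0 UMIs in one of 144 nuclei led by Fyb2 and Tshz2. Vegfa was 33.2 CPM (24.3 to 40.5) in the cluster led by Synpo2, Prkcd and Plekhg1 and 6.4 CPM (1.9 to 9.4) in the one led by Glis3, C1ql3 and Smoc2. Vegfc was 32.2 CPM (22.1 to 42.2) in the Sst-led inhibitory cluster and 2.4 CPM (0 to 4.6) in the striatal cluster led by Rarb, Rgs9 and Penk. Hif1a was more even, from 28.3 CPM in the Vip-led cluster to 52.8 CPM in a cluster of 107 nuclei led by Sfta3-ps. No test was made between clusters.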
